A study of Arabidopsis thaliana with 9 samples.

Results

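Expansins are small secreted proteins that loosen plant cell walls, and 4 of their genes are described here in Arabidopsis thaliana pistils before and after pollination: EXPB5 (AT3G60570), EXPA4 (AT2G39700), EXPA16 (AT3G55500) and EXLA3 (AT3G45960). They were chosen by their measured log2 values, as the annotated expansin genes that moved the most clearly over the groups of the study. Each had 1 probe set that lists it as the only gene, so 4 of 22746 tested probe sets are concerned. Of 36 expansin and expansin-like genes in the family list, 18 were measured. Measured means here, and for the marker lists below, that a probe set lists the gene alone. The annotation lists no gene for 8730 probe sets, so the other genes cannot be called absent from the arrays. With wild-type pollen, the smallest log2 difference from unpollinated pistils among the 4 was 1.92 and the largest in size among the other 14 measured genes was 0.90. Because the choice drew on all 3 groups, the differences of the 4 genes in all 3 comparisons are given below as a description, without a p-value.

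All 9 samples were stage 14 pistils in the Ler-0 ecotype from ms1 (male sterile 1) mothers, which shed no functional pollen, with 100 pistils pooled in each collection. In 3 samples the pistils were unpollinated. In 3 they had received wild-type pollen of the Col-0 ecotype 8 hours before collection, and in the other 3, also at 8 hours, Col-0 pollen that carried myb97-1, myb101-4 and myb120-3 together (mutant pollen below), which lacks a set of related transcription factors that act in the pollen tube. The 2 pollinated groups ask which transcript changes accompany tube growth in the pistil and how far they depend on these factors. The labels call the replicates biological, and the pollen parent differs from the pistil in ecotype in both pollinated groups.

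Expansins act in the wall outside the cell, where they let cellulose-bound polymers slip past each other under turgor without cutting them. The alpha-expansins (EXPA) are known for acid-induced wall loosening, and members of the beta-expansins (EXPB) are abundant in grass pollen, where they loosen walls of the stigma and style. The expansin-like genes (EXLA, EXLB) encode proteins with the same domain plan, for which no wall-loosening activity has been established. A pollen tube grows at its tip and passes between the walls of transmitting tract cells, so in a pollinated pistil both partners have walls under remodelling.

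Pollen tube markers rose with pollination. Of 23 genes listed as pollen tube markers 12 were measured, and all 12 were higher than in unpollinated pistils with either pollen (limma, adjusted p under 0.05 over all probe sets), where 43.6% of all probe sets were called in either direction with wild-type and 41.5% with mutant pollen. The marker lists were chosen with earlier results of these data known, so the calls are not independent support. The summed intensity of the 12 markers ran from 346.9 to 460.4 on the unpollinated arrays, from 8347 to 9888.3 with wild-type pollen and from 7304 to 9084.3 with mutant pollen. LAT52 gave the largest part of these pollinated sums, with mean intensities of 5507 with wild-type and 5003 with mutant pollen. BUPS2 stayed dim, at log2 5.37 to 5.79 on the pollinated arrays. No marker was at 0, and the lowest log2 value of any of them in unpollinated pistils was 3.49. The pistil genes SPT, a regulator of carpel margin and transmitting tract development, and INO, a regulator of ovule integuments, were the 2 measured of 13 on the pistil list, and they moved apart. SPT rose with wild-type pollen (log2 difference 0.71 ± 0.09 SE, limma adjusted p = 0.00014) and with mutant pollen (0.64 ± 0.09, limma adjusted p = 0.000323), while INO had differences of -0.30 ± 0.11 and -0.22 ± 0.11 that did not pass (limma adjusted p = 0.0525 and 0.1354). Their summed intensity was 278.6 to 343.7, 333.4 to 376.3 and 344.6 to 369.4 in the same order of groups. The part of the SPT rise in the expansin values was not tested. The tapetum gene A9, the 1 measured of 4 anther, petal and sepal genes, lay between log2 3.36 and 3.71 on all 9 arrays. A9 was lower with mutant pollen (log2 difference -0.23 ± 0.07 SE, limma adjusted p = 0.0294). With wild-type pollen its difference of -0.17 ± 0.07 did not pass (limma adjusted p = 0.0932). Array median intensities ran from 103.3 to 104.7 without pollination, from 112.2 to 117 with wild-type pollen and from 109.9 to 114.6 with mutant pollen. Since pistil and tubes were extracted together, a transcript cannot be assigned to either partner, and fewer cells of a type cannot be told apart from less RNA per cell.

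EXPB5, the beta-expansin, had the steepest rise of the 4. Before pollination the 3 arrays read 19.0, 16.2 and 20.3 in intensity. After wild-type pollen they read 369.6, 374.8 and 396.2, and after mutant pollen 328.6, 367.1 and 347.3. The unpollinated arrays lay far below all 6 pollinated ones, and the pollinated arrays were close together. A lack of overlap with unpollinated pistils, seen in all 4 genes, was found in 52.8% of all probe sets with wild-type and in 50.5% with mutant pollen, and nothing is read from it here. On the log2 scale the group means were 4.20 ± 0.17 (SD, n = 3), 8.57 ± 0.05 and 8.44 ± 0.08. The log2 difference from unpollinated pistils was 4.37 ± 0.09 (SE of the limma fit) with wild-type pollen, which is 20.6-fold, and 4.24 ± 0.09, or 18.9-fold, with mutant pollen. EXPB5 was dim before pollination and no detection calls were used, so it cannot be called absent there. Its difference also depends on how dim values are treated, and fell to 2.65 and 2.54 when 50 intensity units were added before taking logs.

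EXPA4, an alpha-expansin, was already well measured in unpollinated pistils and rose from there. The intensities were 221.3, 245.6 and 182.3 without pollination. Wild-type pollen gave 1408.6, 1552.1 and 1686.7, and mutant pollen gave 1209.3, 879.2 and 968.8. No array of one group fell within the range of another, and the order was unpollinated, mutant pollen, wild-type pollen. The log2 means in that order were 7.75 ± 0.22 (SD, n = 3), 9.98 ± 0.24 and 10.59 ± 0.13. EXPA4 was thus 7.19-fold higher with wild-type pollen (log2 difference 2.85 ± 0.14 SE) and 4.70-fold higher with mutant pollen (2.23 ± 0.14).

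EXPA16, the other alpha-expansin, showed the same order with a wider gap between the pollinated groups. The unpollinated arrays had intensities of 43.1, 41.6 and 31.1. Those after wild-type pollen had 205.1, 274.4 and 221.3, and those after mutant pollen 131.6, 131.6 and 114.6. The 3 groups did not overlap, and the brightest mutant array stayed well under the dimmest wild-type array. The log2 means were 5.26 ± 0.26 (SD, n = 3) without pollination, 6.97 ± 0.12 with mutant pollen and 7.86 ± 0.22 with wild-type pollen. The log2 difference from unpollinated pistils was 2.60 ± 0.14 SE (6.07-fold) with wild-type pollen and 1.72 ± 0.14 (3.29-fold) with mutant pollen. With 50 added to each intensity before taking logs, these differences were 1.67 and 0.99.

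EXLA3, the expansin-like gene, rose the least with wild-type pollen and was the only 1 of the 4 with its highest values in the mutant pollen group. Intensities of 67.6, 81.0 and 91.8 before pollination became 328.6, 304.4 and 272.5 under wild-type pollen. Under mutant pollen they were 377.4, 347.3 and 451.9. Here too the groups did not overlap, with the mutant arrays above the wild-type arrays. The log2 means were 6.31 ± 0.22 (SD, n = 3), 8.23 ± 0.14 and 8.61 ± 0.19. The log2 differences from unpollinated pistils were 1.92 ± 0.13 SE (3.79-fold) with wild-type pollen and 2.29 ± 0.13 (4.90-fold) with mutant pollen. Both comparisons use the same unpollinated arrays, for EXLA3 as for the other genes.

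**Figure D1:**
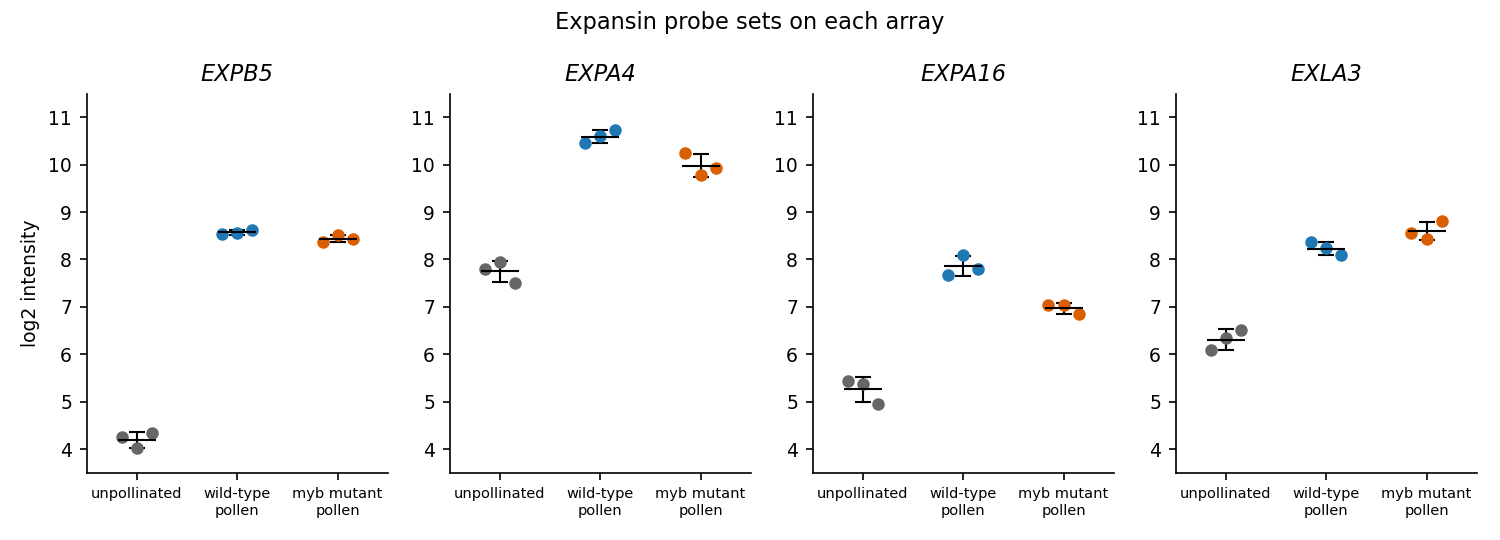
Log2 intensity (vertical axis) of the EXPB5, EXPA4, EXPA16 and EXLA3 probe sets on each of the 9 arrays, by group, with 1 point per array. Horizontal bars are group means and whiskers are the SD (n = 3). All 6 pollinated arrays lie above the unpollinated ones for each gene. EXPA16 with mutant pollen (mean 6.97) sits between unpollinated pistils (5.26) and wild-type pollen (7.86).

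Between the 2 pollinated groups EXPA16 had the widest gap of the 4 genes, at a 1.84-fold lower level with mutant pollen (log2 difference -0.88 ± 0.14 SE, 95% interval -1.20 to -0.57). Over the 16 alternative settings this difference lay between -0.97 and -0.68. EXPA4 was lower with mutant pollen by a log2 difference of -0.61 ± 0.14 (interval -0.92 to -0.30). EXLA3 had a difference of 0.37 ± 0.13 (interval 0.08 to 0.67), with the mutant arrays higher. For EXPB5 the difference was -0.13 ± 0.09 (interval -0.34 to 0.08). The intervals are for each gene alone, without adjustment over all probe sets. They take no account of the choice of these genes by their values, so whether an interval holds 0 is not read as a test. For each of the 4 the mutant and wild-type arrays did not overlap, a pattern found in 9.96% of all probe sets, and nothing is read from it since these arrays were in view when the genes were chosen.

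Of the 12 pollen tube markers, 0 passed between mutant and wild-type pollen by limma and 2 had an unadjusted p under 0.05, where 71 of 22746 probe sets were called, which is 0.312%. Their median log2 difference was -0.12, and the lowest was -0.39, for the receptor kinase gene ANX1 that keeps the tube intact. When the mean log2 value of the 12 markers was subtracted on each array, EXPA16 stood at -0.56, -0.10 and -0.64 with wild-type pollen and at -0.94, -1.30 and -1.35 with mutant pollen. The difference of the means was -0.76, and a lack of overlap on this relative scale, as EXPA16 shows, was found in 7.34% of all probe sets. For EXPA4 the same values were 2.22, 2.40 and 2.29 against 2.26, 1.44 and 1.73, so that mutant array 1 fell within the wild-type range. EXLA3 overlapped as well, at 0.12, 0.05 and -0.34 against 0.58, 0.10 and 0.63. EXPB5 tracked the markers closely, with mean relative values of 0.28 ± 0.07 (SD, n = 3) with wild-type and 0.27 ± 0.10 with mutant pollen.

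The same contrast can be read as the share of the wild-type rise that was present with mutant pollen, on mean intensities above the unpollinated mean. The share was 91% for EXPB5, 60.2% for EXPA4, 44.8% for EXPA16 and 141% for EXLA3. For the 12 pollen tube markers it ran from 72.7% for ANX1 to 109% for the pollen actin gene ACT12, with a median of 92.4%. EXPB5 thus lay within the range of the markers, the 2 alpha-expansins below it and EXLA3 above it. These shares are descriptions without a test.

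**Figure D2:**
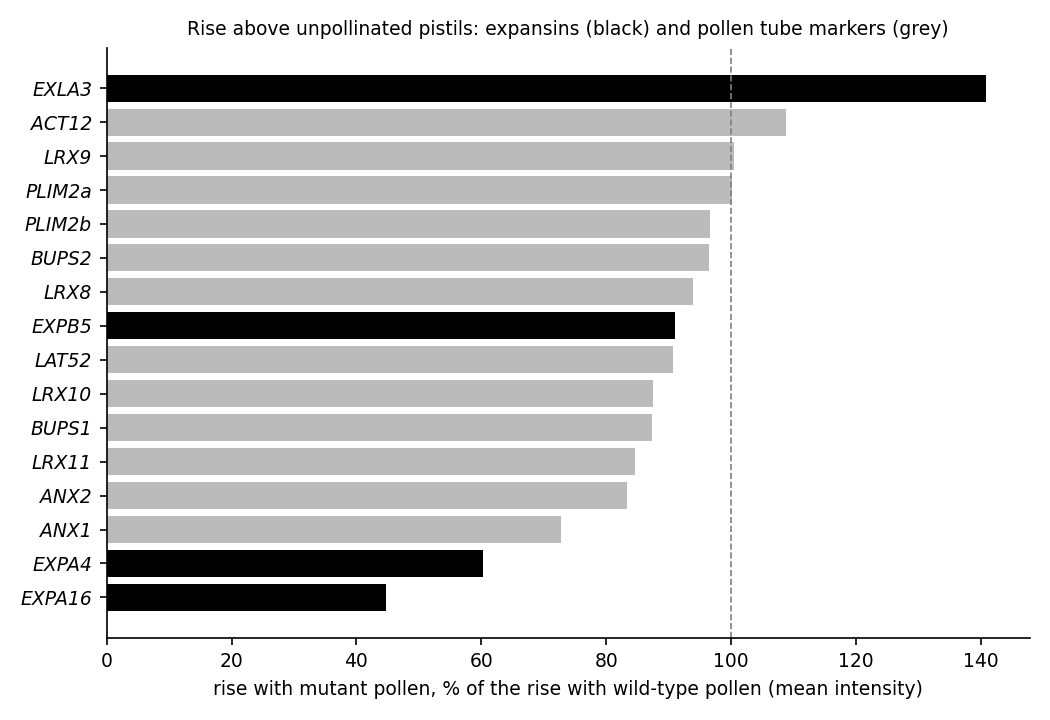
Rise above unpollinated pistils with mutant pollen as a percentage of the rise with wild-type pollen (horizontal axis, from mean intensities of 3 arrays per group), for the 4 expansins in black and 12 pollen tube markers in grey. The dashed line is 100%. EXPA16 (44.8%) and EXPA4 (60.2%) lie below the lowest marker at 72.7%, and EXLA3 (141%) above the highest at 109%.

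The other measured expansins moved less, which follows from the choice of the 4 by their moves. Of the other 14 measured genes, 3 rose and 2 fell with wild-type pollen, and 9 did not pass, against 43.6% of all probe sets called, so the count is no result about the family. Their median log2 difference was 0.06 (0.004 over all probe sets) and became -0.08 when each array was centred on its median. The risers were the alpha-expansins EXPA15 (log2 difference 0.61 ± 0.13 SE) and EXPA24 (0.51 ± 0.11) and the beta-expansin EXPB1 (0.49 ± 0.12), and those that fell were the alpha-expansin EXPA8 (-0.90 ± 0.19) and EXLA1 (-0.53 ± 0.17), by limma with adjusted p from 0.00302 to 0.0298. EXPA24 and EXPB1 were dim, with mean intensities of 14.1 and 19.5 before pollination and 20.2 and 27.3 with wild-type pollen. With 50 added before logs their differences were 0.13 and 0.15. With each array centred on its median, 3 rose and 4 fell. EXLA1 belongs to the same subfamily as EXLA3, yet its intensities went from 1606.8, 1833 and 1082.4 without pollination to 1128.4, 1060.1 and 885.3 with wild-type pollen, and these ranges overlapped. The EXLA1 call was lost without unpollinated array 1 or 2 (limma adjusted p = 0.0859 and 0.107) or wild-type array 2 or 3 (0.0603 and 0.109), when just these 2 groups were fitted (0.0572) and with 50 added before logs (0.0554).

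With mutant pollen the same 14 genes gave 3 higher and 1 lower, against 41.5% of all probe sets called. EXPA24 (0.46 ± 0.11 SE), EXPA15 (0.43 ± 0.13) and EXPA9 (0.30 ± 0.10) rose and EXPA8 fell (-0.97 ± 0.19), with limma adjusted p from 0.00258 to 0.0298. EXPA24 was dim here too, at a mean intensity of 19.4 with mutant pollen. EXPA8 was 1.87-fold lower with wild-type and 1.96-fold lower with mutant pollen. After centring each array on its median, 1 rose and 1 fell. The EXPA15 call was lost without unpollinated array 1 (limma adjusted p = 0.0833) or mutant array 1 (0.0771) or 3 (0.0519), when the unpollinated and mutant arrays were fitted by themselves (0.0565) and after median centring (0.0812). That of EXPA9 was lost without unpollinated array 1 (0.0746) or 3 (0.0588) or mutant array 1 (0.0966), with a replicate block (0.0506), after median centring (0.148) and after renewed quantile normalization (0.25). EXPB1 (0.26 ± 0.12) and EXLA1 (-0.31 ± 0.17) did not pass with mutant pollen, but EXPB1 did without unpollinated array 2 or mutant array 2 (limma adjusted p = 0.0393 and 0.0414) and EXLA1 did without unpollinated array 3 (0.00552).

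The measured genes EXPA7, EXPA18, EXPA20, EXPA21, EXPB2, EXPB3, EXLA2 and EXLB1 passed in neither comparison with unpollinated pistils. The calls in those comparisons used the unpollinated arrays in common. Between mutant and wild-type pollen, limma called 0 of the 14 other genes, none with an unadjusted p under 0.05, against 0.312% of all probe sets called. Their log2 differences ran from -0.29 to 0.22 (SE 0.08 to 0.34). A further 2 probe sets list a pair of expansin genes each and were left out.

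**Figure D3:**
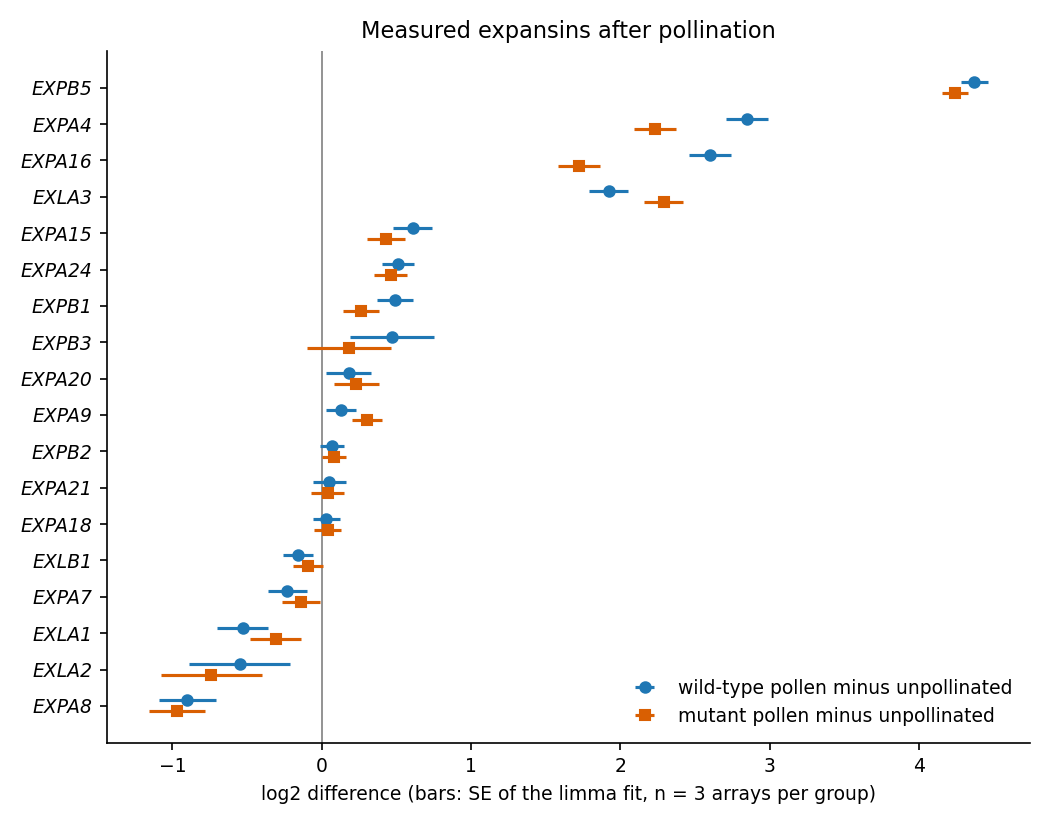
Log2 difference from unpollinated pistils (horizontal axis, SE bars, n = 3 arrays per group) with wild-type pollen (circles) and mutant pollen (squares) for the 18 measured expansins. EXPB5, EXPA4, EXPA16 and EXLA3 lie between 1.72 and 4.37, and the other 14 between -0.97 and 0.61.

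**Figure D4:**
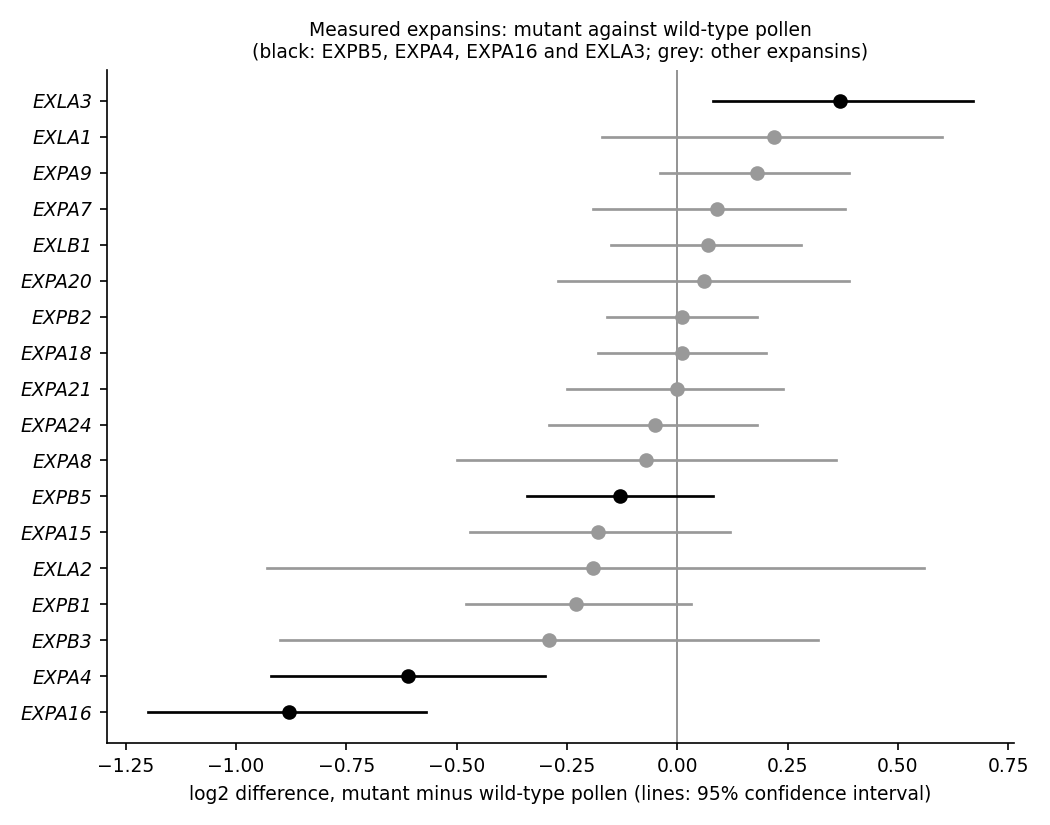
Log2 difference between mutant and wild-type pollen (horizontal axis, lines are 95% intervals of the limma fit) for the same 18 genes, with EXPB5, EXPA4, EXPA16 and EXLA3 in black. EXPA16 lies lowest at -0.88, and the other 14 genes lie between -0.29 and 0.22.

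The probe sets with patterns most like each gene were found from the root-mean-square difference of log2 values over the 9 arrays, after each probe set's own mean was subtracted. For EXPB5 the nearest were AT3G62640 (0.122, Pearson's r = 0.999), LCR72, which encodes a defensin-like cysteine-rich peptide (0.123, r = 0.998), and AT2G22180 (0.128, r = 0.998). For EXLA3 they were AT1G52200 (0.132, r = 0.996), the UDP-glycosyltransferase gene UGT76E12 (0.146, r = 0.992) and AT3G04010 (0.168, r = 0.986).

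EXPA4 and EXPA16 had less close neighbours. Those of EXPA4 were AT3G47800 at a difference of 0.249 (r = 0.980), AT4G15650 at 0.262 (r = 0.978) and the tetraspanin gene TET13 at 0.268 (r = 0.978). Those of EXPA16 were AT4G02160 at 0.290 (r = 0.965), AT5MAT, for an anthocyanin malonyltransferase, at 0.296 (r = 0.965) and AT5G17700 at 0.300 (r = 0.966). Between mutant and wild-type pollen, these neighbours of EXPA16 had log2 differences of -0.33, -0.34 and -0.31, against -0.88 for EXPA16 itself. The neighbours of EXPA4 had -0.24, -0.53 and -0.27, against -0.61 for EXPA4. Those of EXLA3 had 0.29, 0.22 and 0.25, against 0.37 for EXLA3. Those of EXPB5 had -0.21, 0.10 and -0.18, against -0.13 for EXPB5. The neighbours were picked on these same arrays, so the gaps between each gene and its neighbours are not read as a result. The correlations span groups that differ widely, so high values of r follow from the shared rise with pollination. Which 3 probe sets came out nearest changed with the setting for all 4 genes. For EXPA16 all 3 were kept in 2 of the 12 settings in which this was checked.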

How the data were processed

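Transcript levels in 9 pistil samples were measured on arrays after 3' IVT labelling. The deposited values were intensity per probe set on a linear scale, from 6.4 to 27175.1. Per the submitters' processing notes, the authors used RMA, the Affymetrix Expression Console and Partek. Log2 values had been planned for, so log2 of the deposited intensity was taken before every fit. Of 22810 probe sets, 64 controls were left out. The platform annotation lists 1 gene for 13513 of the remaining 22746, several for 503 and none for 8730, and 13436 of those with 1 gene matched the TAIR10.1 reference. Probe sequences were not used here, so hybridization between related expansins was not checked. Groups came from the sample titles. Limma 3.58.1 in R 4.3.3 fitted 1 mean per group to all 9 arrays (6 residual and 4.24 prior degrees of freedom), with Benjamini-Hochberg adjustment over all probe sets and a threshold of 0.05. The fit was tested on simulated data. Precision is limited by having 3 arrays in each group. The 4 genes, the family list and the marker lists were chosen with earlier results of these data known. The genes named were the 4, every other expansin with a probe set of its own, and the 3 nearest patterns of each of the 4. Alternatives were array-median centring, renewed quantile normalization, a filter on dim probe sets (log2 of at least 6 on at least 3 arrays), an offset of 50, eBayes with trend and robust, the compared groups alone, a replicate block and leaving out each array. A planned test of the 4 genes between mutant and wild-type pollen is not reported, because their values in all 3 groups entered the choice. A planned description of protein and promoter sequences was not made.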

Additional observations from a re-analysis of the deposited data

How the results depend on the processing

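EXPB5, EXPA4, EXPA16 and EXLA3 were higher in pollinated than in unpollinated pistils under all 16 alternatives. The size moved most with 50 added before logs, to log2 differences with wild-type pollen of 2.65 (EXPB5), 2.59 (EXPA4), 1.67 (EXPA16) and 1.44 (EXLA3), and with mutant pollen of 2.54, 2.0, 0.99 and 1.76 in the same order. Median centring, which shifted the median of all probe sets from 0.004 to -0.133 with wild-type pollen, gave EXPB5 4.23. Between mutant and wild-type pollen EXPA16 had -0.68 with the offset and -0.97 to -0.76 without single arrays. The number of other expansins that fell with wild-type pollen was 4 after median centring, 1 with the offset and 1 to 3 without single arrays, and 1 rose with wild-type pollen after the filter on dim probe sets, which removed dim genes from the test. With mutant pollen 1 rose after median centring, 1 to 4 rose without single arrays and 1 to 2 fell. EXPA9, not called with wild-type pollen (0.13), changed sign after median centring (-0.01) and renewed quantile normalization (-0.054). Calls over all probe sets between mutant and wild-type pollen fell from 71 to 39 with the dim filter and 40 with the offset, and ran from 35 to 85 without single arrays. Causes were not tested beyond this. With the replicate number as a block, 67 probe sets were called between mutant and wild-type pollen, and 2 in place of 3 other expansins rose with mutant pollen. Same-numbered arrays of different groups correlated in their deviations from -0.162 to 0.313, with 4 of 9 over 0.1. Differently numbered arrays ran from -0.371 to 0.171, with 4 of 18 over 0.1. These values do not settle whether the numbers mark pairs. The main fit did not take them as pairs, and the block is given as an alternative. For genes dim before pollination, such as EXPB5, the fold depends on how dim values are treated. The part of background signal in this was not tested.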

Other observations

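A pair of expansins varied widely between arrays within a pollinated group, EXLA2 with mutant pollen and EXPB3 with either pollen. EXLA2 had log2 values of 5.95, 7.61 and 7.17 with mutant pollen (SD 0.86), against 7.86, 7.45 and 7.64 in unpollinated pistils (SD 0.20). EXPB3 had 8.33, 9.13 and 9.40 with wild-type pollen (SD 0.56) and 8.77, 8.13 and 9.09 with mutant pollen (SD 0.49), but 8.54, 8.52 and 8.39 in unpollinated pistils (SD 0.08). These genes were chosen for their spread after their values were seen.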
